A study of Mus musculus with 9 samples.

Results

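The 10 genes described here are Nr2f2, Lrg1, Lcn2, Il1r1, Vcam1, Icam1, Icam2, Selp, Sele and Tmem252, 10 of the 46517 gene rows of the count table. They were named as a list of venous identity and leukocyte adhesion genes with their levels in these cells already known, so every level below is a description and no test was run on it. RNA was measured with Smart-seq2 in single cells of adult mouse brain microvessel fragments. The deposited table held 1235 cells from 4 plates under 9 type labels. Each label was deposited as 1 sample, and strain, sex, genotype, treatment, age beyond adult and the number of animals are not given in the sources used here.

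The labels were vEC (45 cells, 14114631 reads), capilEC (787 cells, 172998640 reads), aEC (116 cells), CP-EC (17 cells), PC (54 cells), aSMC (41 cells), vSMC (29 cells), FB (9 cells) and MG (137 cells). The sources used here do not spell them out, and how the authors assigned them is not given, so a gene used for a label is no independent evidence of the type. Depth ran from 100021 to 854836 reads per cell. A level below is the summed count of a type scaled to 1000000 reads (CPM), and brackets give exact 95% intervals (Poisson for a level, binomial for a share of cells) that cover counting error only. A difference is on log2(CPM + 5), which understates the change of low genes, and 4-fold is 2 log2 units. Genes over 5 CPM in either of the compared types are called measured. The median depth was 261300 reads per cell in vEC, 192941 in capilEC, 235862 in aEC and 232674 in MG. Plate values are read only from plates with 5 or more cells of a type, which leaves 1 plate for CP-EC and none for FB.

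Leukocytes leave the blood mainly through the wall of venules. Selectins on the endothelium slow them, immunoglobulin-like adhesion molecules hold them through integrins, and cytokines such as interleukin-1 raise the endothelial genes of both steps through NF-kB. Nr2f2 is the nuclear receptor that maintains venous identity by restraining Notch signalling, and it is also active in mesenchymal cells. In the resting brain the adhesion genes that cytokines raise are held low in most vessels.

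The type labels were set against markers first. The 12 pan-endothelial markers summed to 11941 CPM in vEC, beside 16622 in capilEC, 15206 in aEC and 15899 in CP-EC. The 5 venous markers (Vwf, Slc38a5, Ackr1, Ephb4 and Nrp2) summed to 4185 CPM in vEC, against 1135 in capilEC, 349 in aEC and 569 in CP-EC. Slc38a5 (2026 CPM) and Vwf (1329 CPM) made most of the vEC sum. Ephb4 did not set vEC apart, at 85.8 CPM there, 106 in capilEC, 83.2 in aEC and 141 in CP-EC. Nrp2 was close in vEC (263 CPM) and CP-EC (235 CPM). Of the 45 cells labelled vEC, 1 cell on plate s480s went against its label. It held 8355 CPM of lymphocyte markers, 268 CPM of the pan-endothelial list, where the next lowest vEC cell had 4025, and 6.71 CPM of the venous list. Of the 10 genes, Icam2 alone was read in it (221 CPM). Without it, the vEC levels of the 10 genes were nearly the same, for example 598 CPM in place of 591 for Lrg1 and 618 in place of 613 for Icam2. Similarly, 1 capilEC cell held more lymphocyte than pan-endothelial markers (4572 against 379 CPM). The 9 FB cells held 9332 CPM of fibroblast markers, and also 5275 CPM of pericyte and 1576 CPM of astrocyte markers. Vtn alone made 4760 CPM of that pericyte sum, and Abcc9 and Atp13a5 had no read in FB. Slc1a3 made 1151 CPM of the astrocyte sum, and Aqp4, Gfap and Slc1a2 had no read, so these sums rest on few genes. Of the 9 FB cells, 1 passed a filter on other classes' markers, as did 16 of 54 PC cells and 45 of 45 vEC cells. The 3 mural labels carried pan-endothelial sums of 3911 CPM in PC, 1452 in aSMC and 3463 in vSMC, so part of an endothelial gene's level there may belong to endothelial RNA, which was not tested.

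Sequences upstream of 4 of the genes are shown because Lrg1 and Lcn2 were the genes nearest to vEC alone, and because Icam1 and Sele are classical NF-kB targets with very different levels here. RefSeq tables (GRCm38.p6) held a start for 8 of the 10 genes, without Vcam1 and Icam2, and 250 bases before each start were searched. The 8 genes had 9 windows, since Il1r1 had more than 1 start. Matches are counted by gene, where a match in either Il1r1 window counts, but the shares of all windows are by window. The motifs were GGNNNTTCC (like an NF-kB site), TTCNNNGAA (like a STAT site) and TTGCNNAA (like a C/EBP site) on both strands, and TATAAA on the gene's strand. Capitals mark every match. The Lrg1 window is chr17:56121947-56122196, minus strand, and the Lcn2 window is chr2:32387740-32387989, minus strand. Another GRCm38 annotation, used below for gene positions and lengths, starts both genes further upstream, Lrg1 at base 56122001 and Lcn2 at base 32388252. By that annotation the whole Lcn2 window, and the last bases of the Lrg1 window with its match, lie inside the gene. The Icam1 window is chr9:21015690-21015939, plus strand, and the Sele window is chr1:164047984-164048233, plus strand.
Lrg1: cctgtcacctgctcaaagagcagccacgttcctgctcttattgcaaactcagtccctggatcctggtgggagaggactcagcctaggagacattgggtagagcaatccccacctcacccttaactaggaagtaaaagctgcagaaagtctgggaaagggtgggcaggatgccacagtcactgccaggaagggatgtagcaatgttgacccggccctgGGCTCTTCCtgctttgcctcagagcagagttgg
Lcn2: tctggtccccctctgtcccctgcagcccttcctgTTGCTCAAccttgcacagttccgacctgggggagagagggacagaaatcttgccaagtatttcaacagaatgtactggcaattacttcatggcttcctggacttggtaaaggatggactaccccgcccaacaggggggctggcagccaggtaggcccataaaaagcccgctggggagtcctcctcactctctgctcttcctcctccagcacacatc
Icam1: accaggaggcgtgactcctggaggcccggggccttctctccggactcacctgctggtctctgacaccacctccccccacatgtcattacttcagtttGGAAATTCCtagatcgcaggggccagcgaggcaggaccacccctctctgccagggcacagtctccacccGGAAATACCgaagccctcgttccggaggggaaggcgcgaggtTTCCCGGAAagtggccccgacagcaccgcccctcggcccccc
Sele: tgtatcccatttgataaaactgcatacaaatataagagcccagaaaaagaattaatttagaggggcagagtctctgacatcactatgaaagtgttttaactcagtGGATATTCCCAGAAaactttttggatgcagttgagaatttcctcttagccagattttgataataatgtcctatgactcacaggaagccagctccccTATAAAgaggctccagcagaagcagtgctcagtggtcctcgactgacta
The Lrg1 window held 1 NF-kB-like match, 33 to 25 bases before the start, and the Lcn2 window 1 C/EBP-like match, 216 to 209 bases before it. In Icam1, NF-kB-like letters stood 153 to 145 and 84 to 76 bases before the start, and STAT-like letters 42 to 34 bases before it. In Sele, an NF-kB-like match (145 to 137) overlapped a STAT-like match (140 to 132), and TATAAA stood 49 to 44 bases before the start. NF-kB-like letters were found for 6 of the 8 genes (Nr2f2, Lrg1, Il1r1, Icam1, Selp and Sele), beside 15.7% of all 32851 windows of this length. STAT-like letters were found for 2 of the 8 genes, beside 7.02% of all windows, C/EBP-like letters for 2, beside 9.56%, and TATAAA for 1, beside 7.59%. These matches are letters in a window, not measured binding.

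Across the 9 types, the list did not follow 1 pattern. Of the 9 genes measured over 5 CPM in any type, 5 had their highest level in vEC (Lrg1, Lcn2, Il1r1, Selp and Tmem252), beside 11.1% of all measured genes, and 4 of these stood at least 4-fold above every other type (all but Il1r1), beside 0.439% of all measured genes. Nr2f2 and Vcam1 were highest in FB, Icam1 in MG and Icam2 in CP-EC. In FB, 34.2% of the Nr2f2 reads and 32.2% of the Vcam1 reads came from the same cell. It held 6873 CPM of pericyte, 5415 CPM of fibroblast and 888 CPM of astrocyte markers. Over all FB cells the pericyte sum was mostly Vtn and the astrocyte sum mostly Slc1a3. The part of other cell classes in these FB levels was not tested. Sele stayed under 5 CPM in every type. Since these genes were listed for such levels, the counts say what the list holds and no more.

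**Figure D1:**
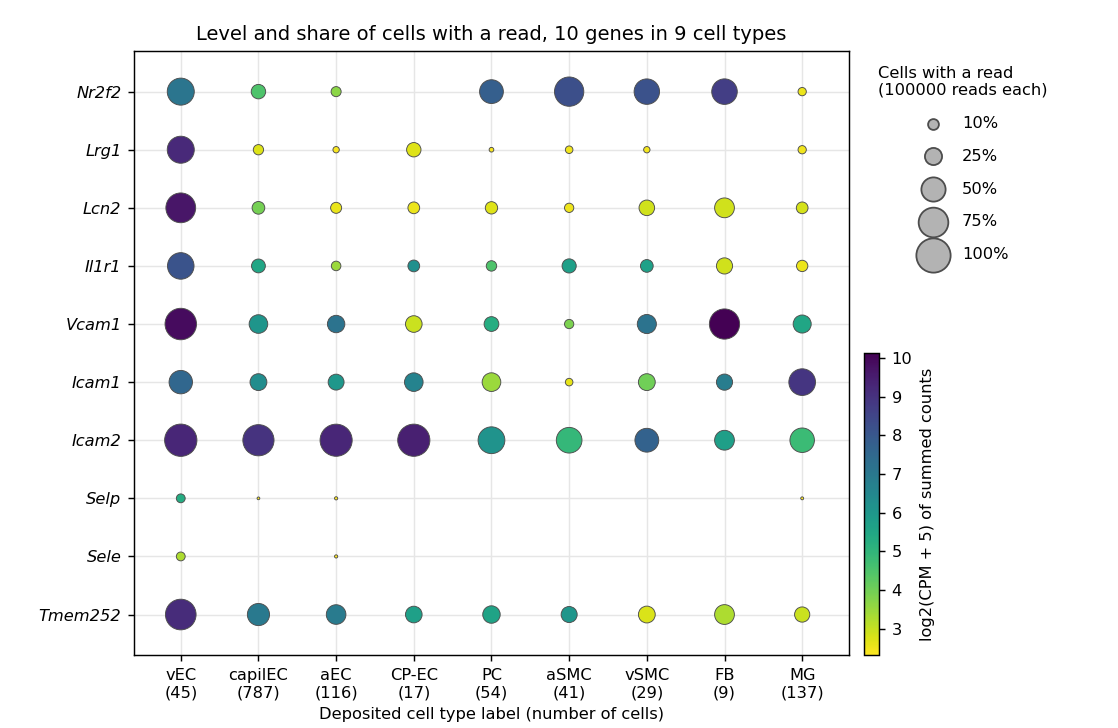
Level of the 10 genes in the 9 deposited cell types; colour gives log2(CPM + 5) of the summed counts and dot area the percent of cells with a read after thinning every cell to 100000 reads. Lrg1 and Lcn2 are dark in vEC only (591 and 809.8 CPM), Icam2 is dark in the 4 endothelial types, and Nr2f2 is dark in vEC, in the 3 mural types and in FB.

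Nr2f2, the venous nuclear receptor, was not limited to endothelium. It stood at 129.9 CPM in vEC (124 to 136), against 17.5 in capilEC, 7.83 in aEC and 0 in CP-EC, where 3 reads would be 0.907 CPM. Outside endothelium it reached 217 CPM in PC, 299 in aSMC, 283 in vSMC and 413 in FB, and 0.797 in MG. Within endothelium vEC was thus the highest type, while every mural type and FB lay above vEC. By plate, vEC had 175, 93.3, 121 and 128 CPM, and capilEC 18.9, 15.4, 20.6 and 15.3 CPM, on plates s169s, s480s, s482s and s483s. The log2 difference of vEC over capilEC was 2.59 (2.27 to 2.91 over 4 plates), and over aEC 3.40 (2.40 to 4.83). The neighbouring levels in PC and vEC, and those of aSMC and vSMC, overlapped between plates. In aEC, 88.6% of the Nr2f2 reads came from 1 cell, which also held 4395 CPM of smooth muscle and 3050 CPM of pericyte markers; without it aEC stood at 0.908 CPM. Nr2f1, the close relative of Nr2f2, was at 0 CPM in vEC and at 52.2 in PC, 56.3 in aSMC, 60.7 in vSMC and 187 in FB.

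Lrg1 encodes a secreted glycoprotein that modulates TGF-beta signalling through endoglin. Its level was 591 CPM in vEC (579 to 604), 1.66 in capilEC, 0.319 in aEC, 1.51 in CP-EC, 0.280 in PC, 0.602 in aSMC, 0.477 in vSMC, 0.391 in FB and 0.613 in MG. No other type came near vEC. By plate, vEC had 951, 427, 484 and 545 CPM, and the highest capilEC plate had 2.60 CPM. Over capilEC the log2 difference was 6.48 (6.01 to 7.12 over 4 plates), and over aEC it was 6.81 (6.43 to 7.40). Lrg1 exceeded 100 CPM in 22 of 45 vEC cells and in 2 of 787 capilEC cells. After thinning, a Lrg1 read was found in 62.2% of vEC cells (46.5 to 76.2%). The share was 9.02% in capilEC (7.11 to 11.2%), and in MG, which carry microglia markers and held 0.613 CPM, it was 5.84% (2.55 to 11.2%). The intervals of capilEC and MG overlap, and no expression is read from that capilEC share.

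Lcn2 encodes lipocalin-2, which binds the siderophores with which bacteria take up iron and is abundant in neutrophils. It reached 809.8 CPM in vEC (795 to 825), against 10.6 in capilEC, 0.926 in aEC, 0.906 in CP-EC, 1.495 in PC, 0.774 in aSMC, 2.38 in vSMC, 2.35 in FB and 2.09 in MG. The vEC plates had 1341, 499, 956 and 538 CPM and did not overlap with any other type. Its log2 difference was 5.71 over capilEC (4.60 to 6.53 over 4 plates) and 7.10 over aEC (6.50 to 8.07). Lcn2 exceeded 100 CPM in 32 of 45 vEC cells and in 9 of 787 capilEC cells, and 1 capilEC cell held 30.2% of the capilEC reads. A thinned read was found in 75.6% of vEC cells, 13.7% of capilEC cells, 10.3% of aEC cells and 11.7% of MG cells, so the shares in capilEC and aEC were close to that in MG. In vEC the 7 neutrophil markers summed to 0.567 CPM, and S100a8, S100a9, Camp and Ngp were at 0. Of the partners listed for Lrg1 and Lcn2 (Eng, Tgfbr1, Tgfbr2, Acvrl1, Smad1, Smad5, Slc22a17, Lrp2 and Mmp9), 0 of 7 measured genes stood 4-fold higher or lower in vEC than in capilEC. Eng, the co-receptor of Lrg1, was at 997 CPM in vEC, against 2022 in capilEC and 2221 in aEC.

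Il1r1 encodes the receptor through which interleukin-1 signals. Its level was 273 CPM in vEC (264 to 281), 40.7 in capilEC, 6.32 in aEC, 70.1 in CP-EC, 17.8 in PC, 48.1 in aSMC, 47.0 in vSMC, 2.35 in FB and 0.92 in MG. The vEC plates had 425, 359, 193 and 216 CPM, all above the capilEC plates at 23.2, 61.2, 31.6 and 45.7 CPM. The log2 difference was 2.60 over capilEC (2.13 to 3.93 over 4 plates) and 4.62 over aEC (3.40 to 6.43). Over CP-EC it was 1.89, under 4-fold, but 97.4% of the CP-EC reads came from 1 cell on plate s482s, and without that cell CP-EC stood at 2.11 CPM. The cell held 751 CPM of Vwf, 479 CPM of Slc38a5 and 1723 CPM of the choroid endothelial list, and it also carried 77.2% of the Icam1 reads and 96.2% of the Tmem252 reads of CP-EC. In capilEC the gene was read in 16.3% of cells after thinning, against 60.0% in vEC, and 48 of 787 capilEC cells exceeded 100 CPM, against 19 of 45 vEC cells. The ligand genes Il1a and Il1b were at 2.13 and 1.77 CPM in vEC, against 1122 and 259.7 CPM in MG, where both were highest.

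Vcam1, the ligand of the leukocyte integrin alpha4 beta1, was high in vEC and in FB. It stood at 956 CPM in vEC (940 to 972), 62.0 in capilEC, 136 in aEC, 2.72 in CP-EC, 33.9 in PC, 9.46 in aSMC, 137 in vSMC, 1110.4 in FB and 40.2 in MG. Only FB, with 9 cells, lay above vEC. Without plate s483s, or without the top cell of each type, vEC was the highest type. By plate, vEC had 1856, 940.1, 704 and 669 CPM, against 39.0, 116, 72.8 and 28.1 in capilEC and 259, 2.17, 123 and 223 in aEC. Its log2 difference was 3.84 over capilEC (2.97 to 5.40 over 4 plates) and 2.77 over aEC (1.56 to 7.04). Single cells made much of the mural levels. In vSMC 94.7% of Vcam1 reads came from 1 cell, which held 9452 CPM of pan-endothelial markers, and without it vSMC stood at 8.05 CPM. In PC 83.7% came from 1 cell with 16819 CPM of pericyte markers, and without it PC stood at 5.59 CPM. In capilEC, 37 of 787 cells exceeded 100 CPM and the highest held 3836 CPM, so high cells also occurred outside vEC, where 30 of 45 cells exceeded 100 CPM.

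Icam1 encodes the ligand of the leukocyte integrins LFA-1 and Mac-1 and was highest outside the vessel wall. It had 182 CPM in vEC (175 to 189), 75.3 in capilEC, 58.2 in aEC, 94.0 in CP-EC, 6.35 in PC, 1.12 in aSMC, 11.3 in vSMC, 109.5 in FB and 483.3 in MG. In FB 66.8% of the Icam1 reads came from 1 cell, and without it FB stood at 44.0 CPM. The vEC plates had 287, 337, 52.9 and 162 CPM, and all 4 lay below the 4 MG plates, which ran from 385 to 573 CPM. Against capilEC the difference was 1.22 log2 units, under 4-fold, and the plates disagreed: it was 2.12, 1.55 and 1.55 on s169s, s480s and s483s, and -0.56 on s482s. Against aEC it was 1.57 in all, and -0.68 on s482s. The 15 genes of the tissue dissociation response, which enzymatic digestion is known to raise, summed to 7189 CPM in vEC, 3224 in capilEC, 6548 in aEC and 28416.5 in MG. Their part in the levels of Icam1 and Vcam1 was not tested.

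Icam2 is the constitutive endothelial member of the same family. Its levels were 613 CPM in vEC (600.5 to 626), 496 in capilEC, 623 in aEC, 695 in CP-EC, 64.7 in PC, 25.5 in aSMC, 202 in vSMC, 49.3 in FB and 23.2 in MG. The endothelial plates overlapped, with 430 to 682 CPM in vEC, 419 to 608 in capilEC and 365 to 692 in aEC. The difference of vEC was 0.30 log2 units over capilEC, -0.02 over aEC and -0.18 over CP-EC. In vSMC 53.8% of the reads came from the cell that also carried the Vcam1 reads. In FB 88.9% came from 1 cell with 5965 CPM of pan-endothelial markers, and without it FB stood at 5.99 CPM. A thinned read was found in 88.9% of vEC cells, 82.8% of capilEC cells and 87.9% of aEC cells.

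The selectins were rare even in vEC. Selp, the gene of P-selectin, which endothelium and platelets store in granules, had 35.4 CPM in vEC (32.4 to 38.7), 0.428 in capilEC, 0.0319 in aEC, 0.0613 in MG, and no read in the other 5 types. All 500 vEC reads came from 3 of 45 cells, with 101, 58 and 341 reads, on plates s480s and s482s. On plates s169s and s483s, Selp had 0 reads in vEC, against 0.725 and 0.612 CPM in capilEC. Over capilEC the log2 difference of 2.90 therefore held on 2 of 4 plates, and it was 1.65 without the top cell of each type and 1.44 without plate s482s. The 3 cells all had reads of Nr2f2, Lrg1, Lcn2 and Ackr1, at 700.0 to 1605 CPM for Ackr1, and 0 reads of the platelet gene Pf4. Icam2 had at most 3.80 CPM in them. The cell with 341 reads held 6659 CPM of venous markers, but also 2404 CPM of arterial and 316 CPM of neuron and oligodendrocyte markers. Its arterial sum and its neuron and oligodendrocyte sum were the highest of any vEC cell, where the medians were 22.1 and 0 CPM. The part of other cell classes in its Selp reads was not tested. In capilEC, 5 of 787 cells had a thinned Selp read and 2 exceeded 100 CPM.

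Sele, the gene of E-selectin, had 67 reads in vEC, or 4.75 CPM (3.68 to 6.03), 0 reads in capilEC among 172998640, 2 reads in aEC, and 0 in the other 6 types. Those 67 reads came from 5 cells with 1, 2, 10, 45 and 9 reads. All 5 had Lcn2 and Vcam1 reads, at 259 to 1230 CPM for Lcn2 (1230.4 in the highest) and 523 to 2583 CPM for Vcam1. The 3 Sele cells on plate s482s, with 64 of the 67 reads, also held reads of the B lymphocyte gene Cd79a, at 173, 168 and 55.0 CPM, beside 0 in the other Sele cells and in the Selp cells. The cell with 45 Sele reads held 4118 CPM of venous markers, but also 669 CPM of arterial, 609 CPM of pericyte and 85.2 CPM of platelet markers. Its pericyte sum was the highest of any vEC cell. The part of Cd79a-bearing RNA, or of RNA from other cell classes, in the Sele reads was not tested. No cell had reads of both selectins. In capilEC the absence allows up to 0.0173 CPM. On the GRCm38 annotation the selectin genes lie on the same strand of chromosome 1, Sele at chr1:164048234-164057677 and Selp at chr1:164115264-164150026.

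Tmem252 encodes a transmembrane protein. It was at 568 CPM in vEC (556 to 581), 120.0 in capilEC, 115 in aEC, 48.0 in CP-EC, 43.6 in PC, 60.2 in aSMC, 1.75 in vSMC, 4.69 in FB and 2.76 in MG. Reads were common in capilEC and aEC as well. The vEC plates had 728, 659.7, 639 and 392 CPM, above all capilEC plates (77.3 to 213 CPM). Over capilEC the log2 difference was 2.20 (1.75 to 3.01 over 4 plates), close to the 4-fold line, and over aEC it was 2.26 (1.73 to 5.90). With TMM scaling it was just under 4-fold over capilEC (1.999). In CP-EC the level without the cell on plate s482s was 2.11 CPM. Of vEC cells 28 of 45 exceeded 100 CPM, and of capilEC cells 155 of 787.

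**Figure D2:**
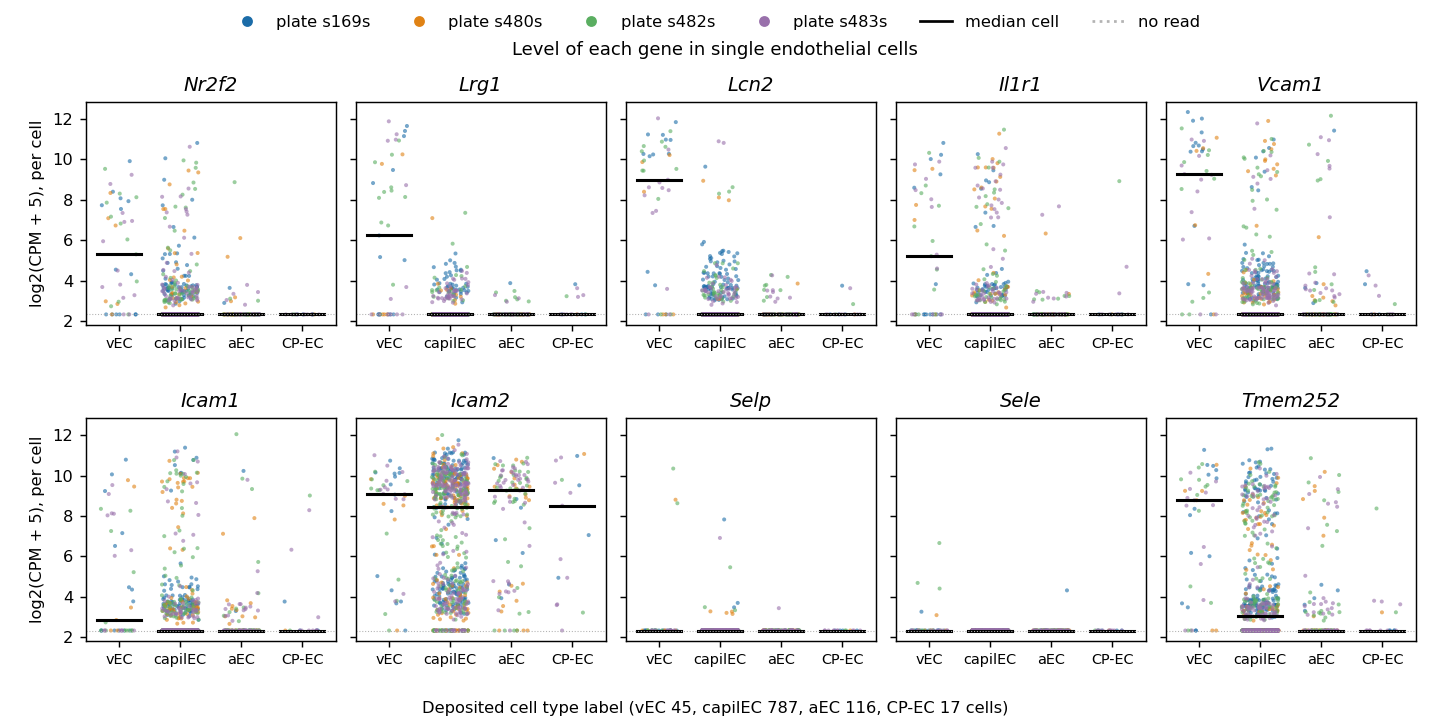
Level of each gene in single cells of the 4 endothelial types, as log2(CPM + 5), coloured by plate, with the median cell as a bar; cells on the dotted line had no read. Median vEC cells hold 504 CPM of Lcn2, 614 of Vcam1 and 434 of Tmem252, where median capilEC cells hold 0, 0 and 3.22 CPM.

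Levels can be set between genes only per length. Per kilobase of exon sequence in the GRCm38 annotation, vEC held 420.0 CPM of Lrg1, 322 of Icam2, 309 of Lcn2, 113 of Tmem252, 108 of Vcam1, 42.9 of Il1r1, 41.8 of Icam1, 15.1 of Nr2f2, 8.03 of Selp and 1.63 of Sele. On that scale Lrg1 was above Vcam1, whose summed reads were higher. In FB, Vcam1 led with 125 CPM per kilobase, and in MG Icam1 did with 111. Nr2f2, Vcam1 and Icam1 each overlap 1 gene on the opposite strand, by 643 bases for Nr2f2 and 511 for Icam1, and Selp overlaps 2. Whether counting used strand is not stated, so reads of such pairs could not be told apart there.

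Set against capilEC, 7 of the 9 measured genes stood higher in vEC by 4-fold or more, beside 1.98% of all 11820 measured genes, and 0 stood 4-fold lower, beside 1.99%. With TMM scaling, 182 of all measured genes stood higher and 287 lower, in place of 234 and 235. The 7 were Nr2f2, Lrg1, Lcn2, Il1r1, Vcam1, Selp and Tmem252. Against aEC the same 7 genes passed, beside 3.18% of all measured genes, and 0 stood 4-fold lower, beside 3.55%. Against CP-EC 6 of them passed, beside 19.2%, with Il1r1 short of 4-fold, and 0 stood 4-fold lower, beside 6.88%. Of the 7, 6 had the same direction on all 4 plates against capilEC and aEC, all but Selp. The list was chosen from these contrasts, so nothing is read from the gap to the background. The 3 comparisons share the vEC cells.

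**Figure D3:**
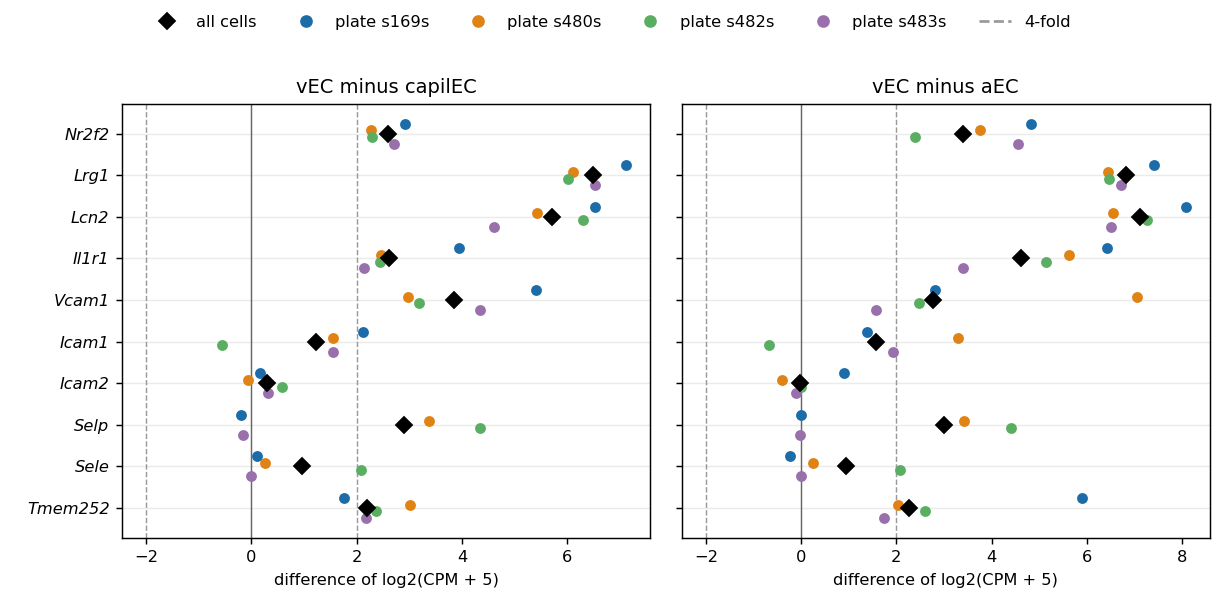
Difference of log2(CPM + 5), vEC minus capilEC (left) and vEC minus aEC (right), for all cells (black diamonds) and by plate (coloured points), with dashed lines at 4-fold. Nr2f2, Lrg1, Lcn2 and Il1r1 lie beyond 4-fold on every plate in both panels, Lrg1 and Lcn2 furthest over capilEC. Icam1 changes sign on plate s482s (-0.56 and -0.68), and the Selp difference comes from plates s480s and s482s.

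In single cells, more of the 10 genes were read per cell under the vEC label. The genes were listed for such levels, so this follows from the single-gene shares of cells. Whether genes were read together beyond those shares was not tested. After thinning, a median of 6 of the 10 genes (1 to 9) was read per vEC cell, and 2 in capilEC, aEC and CP-EC cells. At least 5 of the 10 were read in 35 of 45 vEC cells (77.8%, 62.9 to 88.8%), 48 of 787 capilEC cells (6.10%, 4.53 to 8.01%), 3 of 116 aEC cells (2.59%) and 0 of 17 CP-EC cells. By plate the vEC median was 5.5, 5, 7 and 6 genes. Lrg1 and Lcn2 were both read in 24 of 45 vEC cells, Lcn2 alone in 10, Lrg1 alone in 4 and neither in 7. In capilEC both were read in 21 of 787 cells and neither in 629.

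**Figure D4:**
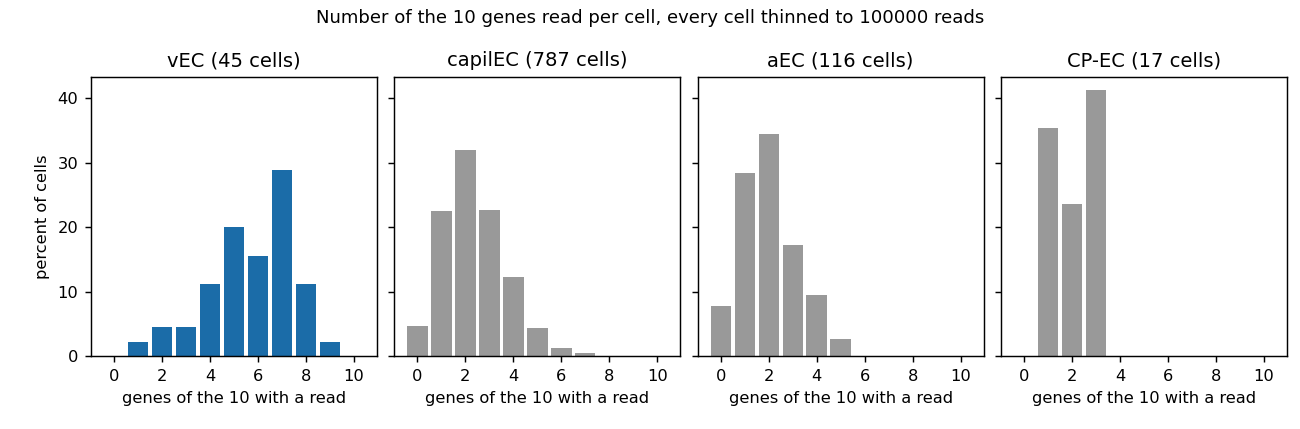
Percent of cells by the number of the 10 genes read, in vEC (blue) and the other endothelial types (grey), every cell thinned to 100000 reads. The vEC cells centre on 6 genes and capilEC and aEC cells on 2.

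Among the 45 vEC cells the genes were compared by Spearman correlations of thinned counts, which are a description, since cells share plates, libraries and their source. Vcam1 and Icam1 had the highest value (0.54), and all 21 cells with an Icam1 read also had Vcam1. Lrg1 and Lcn2 followed (0.47), then Nr2f2 with Lcn2 (0.39) and Lrg1 with Tmem252 (0.37). Across the first 2 pairs the values were 0.21 for Lrg1 with Vcam1, 0.13 for Lcn2 with Vcam1, 0.07 for Lrg1 with Icam1 and 0.02 for Lcn2 with Icam1. Icam2 with Selp had the lowest value (-0.41), which rests on 3 Selp cells. The median over all 45 pairs was 0.081. Ackr1, which binds chemokines on venules, correlated with Lcn2 (0.57), Lrg1 (0.46) and Selp (0.34), and with Vcam1 (0.11) and Icam1 (-0.01) hardly at all. Vcam1 correlated with the dissociation list (0.39) and Icam1 less so (0.23), while Lcn2 stood at -0.13 and Lrg1 at -0.02.

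**Figure D5:**
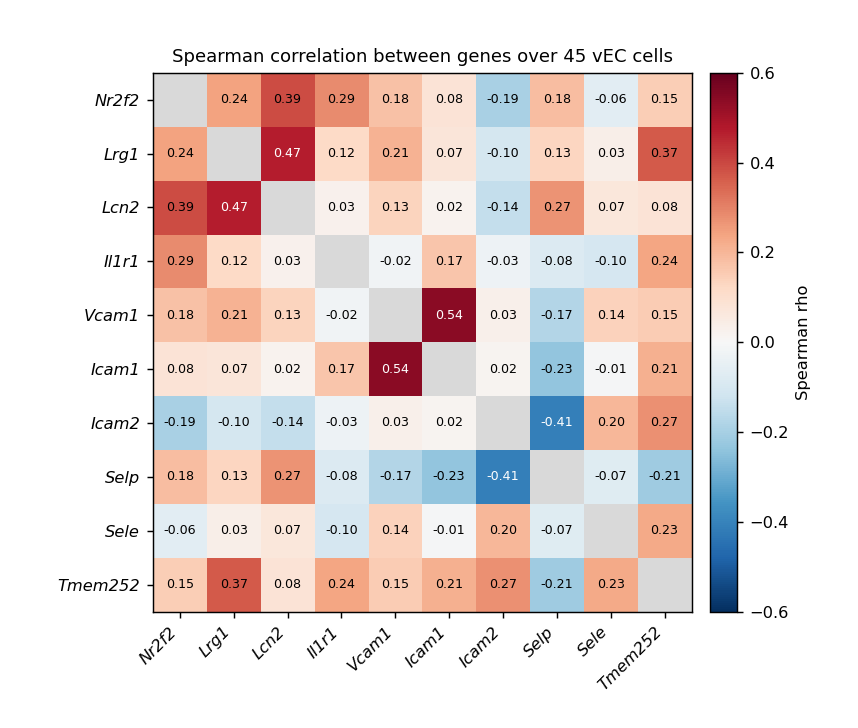
Spearman correlation between the 10 genes over 45 vEC cells, thinned counts; red is positive and blue negative. Vcam1 with Icam1 (0.54) and Lrg1 with Lcn2 (0.47) are the darkest red cells.

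Other genes of the same biology were taken as lists. Of 10 further venous genes, 5 stood at least 4-fold higher in vEC than in capilEC and 0 lower (median log2 difference 1.84, against 0.07 over all measured genes), and 6 stood higher than in aEC. Ackr1 was at 481 CPM in vEC, against 1.60 in capilEC and 0.607 in aEC. Ctsc, a lysosomal protease gene, was at 830.1 CPM in vEC, against 166 in capilEC. Of 12 measured regulators of vessel identity, only the neuropilin gene Nrp2 was 4-fold higher than in capilEC (263 against 27.4 CPM), and the Notch pathway genes Notch4 (19.1 against 116 CPM) and Hey1 (14.2 against 85.5 CPM) were 4-fold lower. Of these lower calls 0 were left with a pseudocount of 20 CPM and 1 without plate s480s. Over all 16 alternatives the count of lower genes ran from 0 to 4.

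Of 14 measured genes of leukocyte passage, Ackr1 alone was 4-fold higher than in capilEC and the chemokine gene Cxcl12 was lower (371 CPM in vEC, against 3621 in capilEC). Pecam1 was at 967 CPM in vEC, against 1324 in capilEC, Jam2 at 547 against 534, and Cd99l2 at 129 against 39.5, a log2 difference of 1.58. These counts depend on plates: 2 genes stood 4-fold higher without plate s483s, and 2 stood lower without plate s482s. The selectin ligand Selplg was at 8.86 CPM in vEC, against 3484 in MG, and the integrin chain Itgb2 at 1.06 CPM in vEC, against 637 in MG.

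In the interleukin-1 and NF-kB list, 1 of 19 measured genes was 4-fold higher in vEC than in capilEC, the NF-kB cofactor Nfkbiz (93.1 against 16.5 CPM), and 1 was lower, the kinase gene Irak2 (6.23 against 44.5 CPM). Both calls were lost without plate s480s and with a pseudocount of 20 CPM, where 0 genes passed either way. Over all 16 alternatives the count of higher genes ran from 0 to 1 and that of lower genes from 0 to 3. The median log2 difference of the list was -0.22. Il1rap, the co-receptor of Il1r1, was at 19.6 CPM in vEC, against 15.9 in capilEC. In the interleukin-6 and STAT3 list, 0 of 12 measured genes passed against capilEC (median 0.59), and Cebpd, a C/EBP factor, passed against aEC (265.5 against 17.3 CPM). Il6st, the shared receptor chain gp130, was at 529 CPM in vEC, against 150.2 in capilEC. Of 8 genes that anchor adhesion molecules to actin, 0 were 4-fold higher than in capilEC and Ezr, the gene of ezrin, was lower (0.354 CPM in vEC, against 44.7 in capilEC), a call that was lost with a pseudocount of 20 CPM.

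The genes most like each of the 10 over the 9 types were taken by Pearson's r of log2(CPM + 5) among 3187 genes. Icam2 was followed by the endothelial genes Cd93 (0.99), Sdpr (0.99) and Egfl7 (0.98). Nr2f2 was followed by Colec12, Ddr2 and Ndufa13 (all 0.92). Lrg1, Selp and Sele had the same 3 genes (Ube2a, Tbcb and Ptgs2), and Lcn2 had Ube2a, Ptgs2 and Slc38a5, with r of 0.83 to 0.89. Of these Ptgs2, a prostaglandin synthase gene, had a like shape in size too, at 302 CPM in vEC and 7.50 in capilEC, while Ube2a was at 140.0 and 74.4 CPM. Il1r1 was followed by Ndufa8 (0.98), Rnaseh2a and Dusp23, Vcam1 by Ergic2 (0.94), Gpatch8 and Metap2, Icam1 by Tram1 (0.94), Sdcbp and Snx6, and Tmem252 by Psma5 (0.97), Anks1 and Ndufa3. With Spearman's rho in place of r, 0 of the 3 genes stayed for each member except Tmem252, which kept 2, so the neighbours depend on the measure.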

How the data were processed

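The authors' deposited table held raw counts of reads per gene and cell, and another deposited table gave each cell its type label. The submitters' processing notes name SAMtools 1.16.1, featureCounts, Subread 1.4.6-p5 and the builds GRCm38 and GRCm39, with no role for either build. Smart-seq2 covers whole transcripts without molecular identifiers, so reads are not independent molecules. Every cell was used, and plates were read off the start of the cell names. No doublet caller was run. Cells carrying another class's markers were dropped in 1 alternative.

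Counts were added up within a type and scaled to CPM. Shares of cells with a read, genes read per cell and correlations over cells used counts thinned at random to 100000 reads per cell. Cells over 100 CPM, and the selectin cells, were counted on all reads. Each type is 1 sample, so no test was run. A count of 0 was given a limit of 3 reads. The members, gene lists and comparisons were chosen with earlier results of these data known. Besides the 10 genes, the text names the list genes past 4-fold (at most 4 per list and direction, by size), markers that bear on a member, and the 3 genes most correlated with each member (at least 50 CPM, and read in at least 50% of the cells of their highest type). The levels of Ptgs2, Ube2a, Eng, Pecam1, Jam2, Cd99l2, Cd79a, Selplg, Itgb2, Il1a, Il1b, Il1rap, Il6st and Nr2f1 were picked after their values were seen. Gene positions and lengths come from a GRCm38 annotation matched by symbol.

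The alternatives were TMM factors (edgeR 4.0.16), size factors (DESeq2 1.42.0), totals that leave out mitochondrial and ribosomal RNA rows, equally weighted cells, pseudocounts of 1 or 20 CPM, no minimum level, thinned counts, a 3-fold limit, and dropping each plate, each gene's top cell or marker-mismatched cells. Dropping endothelial cells with more lymphocyte than endothelial markers was added after seeing the data. Python 3.11.15 and R 4.3.3 were used. Some genes of the lists are not reported here.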

Additional observations from a re-analysis of the deposited data

Results flagged for a closer look

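The level of each gene on the 4 plates was looked at in vEC, capilEC, aEC and MG, and 5 of 38 sets had 1 plate far from the other 3 for its range (chance flags about 1 in 20). Sele in vEC stood at 16.1 CPM on plate s482s, beside 0.355, 0.952 and 0 CPM on the other plates, and its 3 cells with most reads are on that plate. Tmem252 in aEC stood at 7.26 CPM on plate s169s, which held 7 aEC cells, beside 101 to 158 CPM on the others. The other 3 sets rest on 1 or 2 reads: Selp in aEC on plate s483s (0.0925 CPM), Selp in MG on plate s482s (0.218 CPM) and Sele in aEC on plate s169s (1.32 CPM).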

How the results depend on the processing

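No paired analysis was possible because each type is 1 sample, no test was run and the labels carry no replicate numbers. Over 16 alternatives, the count of genes at least 4-fold higher in vEC stayed at 6 to 7 of the 10 against capilEC and against aEC, and at 5 to 7 against CP-EC. The count highest in vEC ran from 5 to 7, and that 4-fold above every other type from 3 to 5. Selp left the count against capilEC with a pseudocount of 20 CPM (1.44), without plate s482s (1.44) and without its top cell (1.65), and Tmem252 left it with TMM factors. Il1r1 joined the count against CP-EC with equally weighted cells, thinned counts, a 3-fold limit, and without plate s482s or the top cells. Without plate s482s, Icam1 was 4-fold higher than in aEC (2.38). Of 480 values of log2 differences, 415 moved by no more than a spread, and 0 of those past 4-fold changed sign. The spread was the standard deviation over plates, or, against CP-EC with its 1 plate, the half-width of the counting interval. Most of the values that moved were against CP-EC. The 3-fold limit and the setting with no minimum level cannot change a log2 difference, so their values were bound to stay. Against capilEC and aEC, a dropped plate is itself part of the spread, so dropping it could hardly move a difference past that spread. The spread was also wide for some genes. For Selp over capilEC, a fall from 2.90 to 1.44 counted as no move. Of 576 counts of list genes 63 moved by over 1.5 times, and of 90 shares of cells 24 moved beyond their interval when all reads were used. The causes were not tested. TMM factors shifted the median of all measured genes by -0.17 against capilEC and aEC, and DESeq2 factors by -0.30 against CP-EC. With TMM, 182 genes were 4-fold higher and 287 lower than in capilEC, beside 234 and 235. Without the lymphocyte-marked cells, 2 genes of the NF-kB list were 4-fold lower than in capilEC, in place of 1. Depth limits the shares of cells: with all reads in place of thinned ones, Nr2f2 was read in 77.8% of vEC cells in place of 62.2%, and Tmem252 in 52.4% of capilEC cells in place of 41.8%. The selectins rest on 3 and 5 cells.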
